A study of Mus musculus with 6 samples.

Results

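The proteasome genes were followed in MC3T3-E1 cells, a clonal mouse pre-osteoblast line that lays down mineralized matrix in osteogenic medium. Members were all protein-coding genes of the table whose symbol starts with Psm, a letter from a to g and a digit, with the inducible subunits Psmb8 and Psmb9 left out, which gave 48 of 54532 genes. RNA was sequenced from cells in osteogenic medium alone (the control, 3 samples) and from cells in osteogenic medium with metformin, a biguanide that lowers blood glucose (3 samples). The study's methods give 0.2 mM metformin, 3 days of induction and biological replicates, while the sample labels give neither dose nor time. The labels name the same line for both groups and mark the samples as nc or met, while the medium is known from the study. As described there, the groups differ only in metformin. Cells grown without osteogenic medium were not analysed here.

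The proteasome breaks down proteins tagged with ubiquitin. Its barrel-shaped 20S core is made of outer alpha rings, which gate the channel, and inner beta rings, which carry the proteolytic sites in Psmb5, Psmb6 and Psmb7. The 19S regulatory particle caps the core, with a ring of ATPases (Psmc1 to Psmc6) that unfold substrates and non-ATPase subunits (most Psmd genes) that bind and remove ubiquitin. Activators of the Psme family can cap the core in place of the regulatory particle, Psmg genes encode chaperones that build the core, and Psmd5, Psmd9 and Psmd10 encode chaperones of the ATPase ring. In osteoblasts the proteasome is known for the turnover of Runx2, the master transcription factor of bone formation.

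The levels are FPKM, that is, reads per length of the gene and per size of the library, so levels of different genes are set side by side per length, as far as the listed length holds. The reads behind them summed to 18399861 to 20652437 per control sample and 19256672 to 22111790 per metformin sample, and 3 reads are at most 1.63e-05% of a sample, a limit for counting error only. A gene was tested where its mean was at least 0.5 FPKM, and it was called higher or lower where the adjusted p of limma-trend on log2(FPKM + 1), with Benjamini-Hochberg adjustment over 12681 genes, was under 0.05. Of the osteoblast markers 7 of 7 were tested, led by Spp1 and Col1a1. Col1a1 (log2 fold change 0.93) was called higher, Spp1 (-1.50) and Ibsp (-1.60) were called lower, and 4 were not called. Without control replicate 1, Sp7 (0.27, adjusted p = 0.023 by limma-trend) was also called higher and Bglap (-0.91, adjusted p = 0.00314 by limma-trend) lower. With all samples Sp7 was at 0.36 (adjusted p = 0.0586 by limma-trend) and Bglap at -0.28 (adjusted p = 0.735 by limma-trend). Across fits that left out one sample, Bglap ranged from -0.91 to 0.12. Markers of adipocytes, endothelium and muscle were all under the limit (0 of 4, 0 of 2 and 0 of 2 tested), as were the macrophage markers Ptprc and Adgre1 and the cartilage marker Acan. Of the tested markers of other cell types, Cd68 (log2 fold change -0.49) and Col10a1 (-1.91) were called lower and Col2a1 (-0.07) was not called, while without control replicate 1 all 3 were, with -0.32 for Col2a1 (adjusted p = 0.0198 by limma-trend), and their part in the results was not tested. Control replicate 1 stood apart from the other control samples, and across tested genes its deviation from them fell with transcript GC (Spearman -0.668). Values without this sample are given where a call or a direction changed, and for some values that moved in size.

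With metformin the proteasome genes split between small changes in both directions, and few passed the test. Of the 48 members 46 were tested. Of these, 1 was called higher (2.17%), against 13.2% of all tested genes. Another 4 were called lower (8.70%), close to the 9.28% of all tested genes. The genes called lower were Psmb5, the core subunit with the chymotrypsin-like site, Psmd4, a ubiquitin receptor of the regulatory particle, and the assembly chaperones Psmd10 and Psmg3. The gene called higher was Psmc3ip, which shares only its name with the group, since its product binds the ATPase Psmc3 but acts in meiotic recombination. The median log2 fold change was 0.037 over the tested members (0.016 without control replicate 1) and 0.0053 over all tested genes. All 3 metformin samples lay above all 3 controls for 10 members, 21.7% of those tested against 23.6% of all tested genes, and below them for 12, which is 26.1% against 20.5%. In cultures measured as a whole, fewer cells that express a gene and less RNA per cell cannot be told apart.

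**Figure D1:**
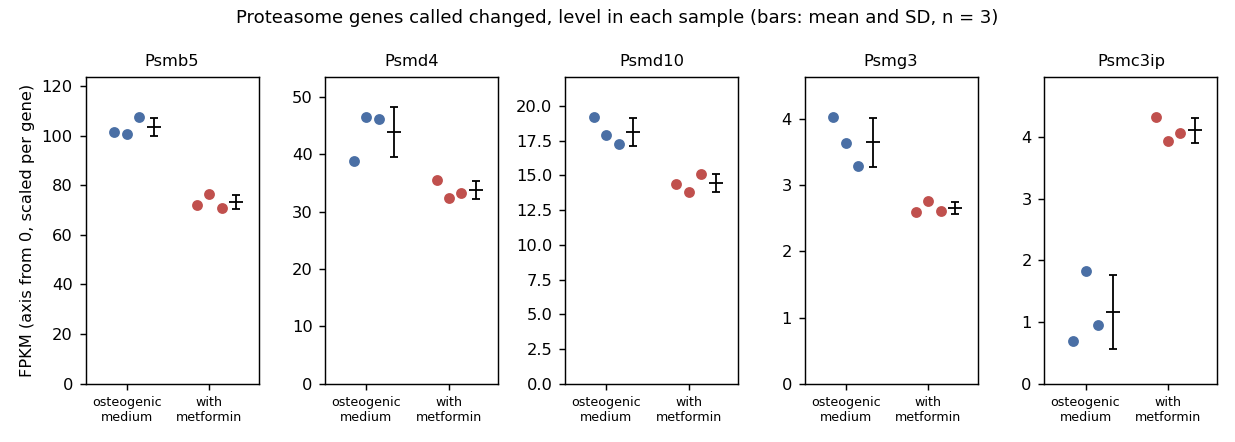
Level of the 5 proteasome genes called changed, in FPKM on axes that start at 0 and are scaled per gene. Points are samples in the order of their replicate numbers (blue, osteogenic medium; red, with metformin) and bars are the mean and SD of 3 samples. The groups do not overlap for any of the 5 genes, and for Psmd4 the gap lies between control replicate 1 at 38.8 FPKM and metformin replicate 1 at 35.5 FPKM.

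Psmb5 (chromosome 14, 54614119 to 54618022, GRCm38 coordinates of the table) encodes the subunit that cuts after bulky hydrophobic residues and is the main target of bortezomib. Its level was 102, 101 and 107 FPKM in the control samples and 72.1, 76.5 and 70.9 FPKM with metformin. Every metformin sample lay below every control, with a wide gap between the groups. The mean was 103 ± 3.60 FPKM (SD, n = 3) without metformin and 73.2 ± 2.91 FPKM (SD, n = 3) with it, a log2 fold change of -0.49 (95% confidence interval -0.69 to -0.30, SE of the estimate 0.08, adjusted p = 0.00719 by limma-trend). Control replicate 1 was not apart for this gene, and the log2 fold change without it was -0.50 (adjusted p = 0.00125 by limma-trend). The call was lost without metformin replicate 1 (adjusted p = 0.0544 by limma-trend) and without metformin replicate 3 (adjusted p = 0.0529 by limma-trend), with log2 fold changes of -0.48 and -0.47. The transcript of the processed pseudogene Gm3375 is 98.9% identical over 796 bases, and with its 9 to 78 reads per sample added to those of Psmb5 the log2 difference was -0.46, a value added after the data were seen.

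Psmd4 (chromosome 3, 95032694 to 95042614) encodes a subunit that holds polyubiquitin chains at the regulatory particle. It had 38.8, 46.5 and 46.2 FPKM in the control samples and 35.5, 32.4 and 33.3 FPKM with metformin. Control replicate 1 was the lowest control, but the groups did not overlap. The log2 fold change was -0.36 (95% confidence interval -0.61 to -0.12, SE 0.10, adjusted p = 0.0443 by limma-trend), and without control replicate 1 it was -0.45 (adjusted p = 0.00165 by limma-trend).

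Psmd10 (chromosome X, 140948429 to 140956728) encodes gankyrin, a chaperone that joins the ATPase ring during assembly. Its level was 19.2, 17.9 and 17.2 FPKM in the control samples and 14.4, 13.8 and 15.1 FPKM with metformin, with no overlap. The log2 fold change was -0.31 (95% confidence interval -0.51 to -0.11, SE 0.08, adjusted p = 0.039 by limma-trend). Psmg3 (chromosome 5, 139823592 to 139826885), which encodes a chaperone of alpha ring assembly, was expressed at a lower level. It had 4.03, 3.64 and 3.29 FPKM in the control samples and 2.596, 2.76 and 2.61 FPKM with metformin, from 147 to 221 reads. The groups did not overlap here either, and the log2 fold change was -0.35 (95% confidence interval -0.56 to -0.13, SE 0.09, adjusted p = 0.0362 by limma-trend).

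The call of Psmb5 held in 4 of 6 fits that left out one sample, those of Psmd10 and Psmg3 in 2 and that of Psmd4 in 1. The calls of Psmd4, Psmd10 and Psmg3 were lost without control replicate 2 (adjusted p = 0.121, 0.0889 and 0.0909 by limma-trend) and without each of metformin replicates 1, 2 and 3 (adjusted p from 0.107 to 0.175 by limma-trend), and Psmd4 also without control replicate 3 (adjusted p = 0.0919 by limma-trend). With no filter on low values Psmd4 (adjusted p = 0.0636 by limma-trend) and Psmg3 (adjusted p = 0.0959 by limma-trend) lost the call, and by voom on the recovered reads Psmd10 (adjusted p = 0.0564) and Psmg3 (adjusted p = 0.0507) did. Psmg3 overlaps Gm26938 on the same strand and shares 280 identical bases with it, but Gm26938 had 0 reads in every sample.

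Psmc3ip (chromosome 11, 101091823 to 101095436) had 0.693, 1.84 and 0.951 FPKM in the control samples and 4.32, 3.94 and 4.07 FPKM with metformin. The lowest metformin sample was well above the highest control. The log2 fold change was 1.28 (95% confidence interval 0.83 to 1.73, SE 0.19, adjusted p = 0.00444 by limma-trend), the call held in 6 of 6 fits that left out one sample, and 23 to 70 reads in the control samples stood against 144 to 156 with metformin. The gene overlaps Mlx by 385 bases on the opposite strand, where Mlx had 497 to 634 reads per sample, and whether the counting used strand is not given in the sources used here. Among the other 45 tested members 0 were called higher.

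The windows around the start sites of the 4 genes called lower are shown because these genes moved the same way in the fit. RefSeq (GRCm38.p6) gave 43 windows for 40 of the 48 members, each from 250 bases before to 50 bases after the start, and all 4 lie on the minus strand. Capitals mark matches to CCGGAAG, a binding motif of ETS factors, and TGACNNNGC, the core of the antioxidant response element bound by Nfe2l1 and Nrf2 (N is any base, both strands searched).
Psmb5 (chr14:54617946-54618245): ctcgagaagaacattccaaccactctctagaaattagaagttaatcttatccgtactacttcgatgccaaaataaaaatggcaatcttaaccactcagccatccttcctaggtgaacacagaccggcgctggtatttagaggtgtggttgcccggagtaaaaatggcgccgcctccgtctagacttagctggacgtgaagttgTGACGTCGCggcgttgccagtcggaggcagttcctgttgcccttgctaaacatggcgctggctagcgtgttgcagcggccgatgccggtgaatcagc
Psmd4 (chr3:95042565-95042864): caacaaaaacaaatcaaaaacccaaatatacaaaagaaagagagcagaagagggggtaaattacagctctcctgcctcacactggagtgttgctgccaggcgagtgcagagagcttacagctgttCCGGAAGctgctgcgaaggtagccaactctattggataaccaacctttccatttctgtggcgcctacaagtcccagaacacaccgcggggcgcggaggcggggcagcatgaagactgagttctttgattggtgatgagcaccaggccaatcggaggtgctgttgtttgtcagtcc
Psmg3 (chr5:139826845-139827144): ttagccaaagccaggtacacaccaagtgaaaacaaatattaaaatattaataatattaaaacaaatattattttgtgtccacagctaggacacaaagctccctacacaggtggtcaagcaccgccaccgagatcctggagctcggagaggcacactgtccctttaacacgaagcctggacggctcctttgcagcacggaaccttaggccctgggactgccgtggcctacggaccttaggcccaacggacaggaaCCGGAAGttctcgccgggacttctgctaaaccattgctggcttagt
Psmd10 (chrX:140956662-140956961): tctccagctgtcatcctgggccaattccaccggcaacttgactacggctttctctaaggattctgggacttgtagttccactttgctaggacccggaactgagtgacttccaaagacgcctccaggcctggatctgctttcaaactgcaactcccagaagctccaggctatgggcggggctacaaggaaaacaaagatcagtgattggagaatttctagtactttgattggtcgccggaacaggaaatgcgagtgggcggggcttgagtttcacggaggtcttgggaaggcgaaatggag
Psmb5 holds the antioxidant element 47 bases before its start, Psmd4 holds the ETS motif 125 bases before its start, Psmg3 holds it 4 bases after its start, and the window of Psmd10 has neither run of letters. The ETS motif was frequent among the members, in 16 of 43 windows (37.2%), against 8.86% of all 32851 windows and 11.6% of the 21263 windows of coding genes. It was in the windows of 9 of 14 regulatory particle genes and in that of 1 of 11 core genes (Psma6). The antioxidant element was in 13.95% of member windows (6 of 43, those of Psmb5, Psmb6, Psmc6, Psmd9, Psmd12 and Psme4) against 12.98% of coding windows, the CCAAT box (CCAAT) in 32.6% against 38.2%, and the GC box (GGGCGG) in 53.5% against 46.2%. Of the 14 regulatory particle and 11 core genes, the antioxidant element was in 2 and 2, the CCAAT box in 4 and 6, and the GC box in 10 and 5. Whether the particles differ in motifs was not tested. None of these 4 motifs contains another, and a match describes letters, not binding.

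The core was compared with the regulatory particle. Of the 14 core subunits 0 were called higher and 1 lower (7.14%), and of the 17 regulatory particle subunits 0 were called higher and 1 lower (5.88%), against 13.2% higher and 9.28% lower of all tested genes. The median log2 fold change was 0.081 in the core and 0.035 in the regulatory particle, and without control replicate 3 that of the core was -0.028. The equal counts did not hold in every fit. Both particles had 0 calls without metformin replicate 1 and without metformin replicate 3. Without control replicate 1 the core had 2 genes called higher (14.3%) and 1 lower (7.14%), and the regulatory particle 1 higher (5.88%) and 4 lower (23.5%). Of all tested genes 23.4% were higher and 20.4% lower in that fit. With the GC trend removed from each library the core had 0 higher and 1 lower and the regulatory particle 1 higher and 3 lower. There 19.1% of all tested genes were higher and 16.0% lower. Whether the particles differ in these counts was not tested.

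Averaged over its 14 subunits, the core had mean log2(FPKM + 1) levels of 5.41, 5.37 and 5.22 in the control samples and 5.33, 5.33 and 5.31 with metformin. The regulatory particle had 4.99, 5.07 and 5.03 in the control samples and 5.05, 5.04 and 5.03 with metformin. Core minus regulatory particle was 0.42, 0.30 and 0.19 in the control samples and 0.28, 0.29 and 0.28 with metformin, all on the log2 scale. The metformin samples lay inside the range of the control samples for both particles and for their difference. The difference between particles was 0.30 ± 0.11 (SD, n = 3) without and 0.28 ± 0.01 (SD, n = 3) with metformin, so metformin minus control was -0.02, less than the spread of the control samples, and without control replicate 1 it was 0.04. The spread differed between the groups, with an SD of the core mean of 0.10 in control samples and 0.01 with metformin.

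**Figure D2:**
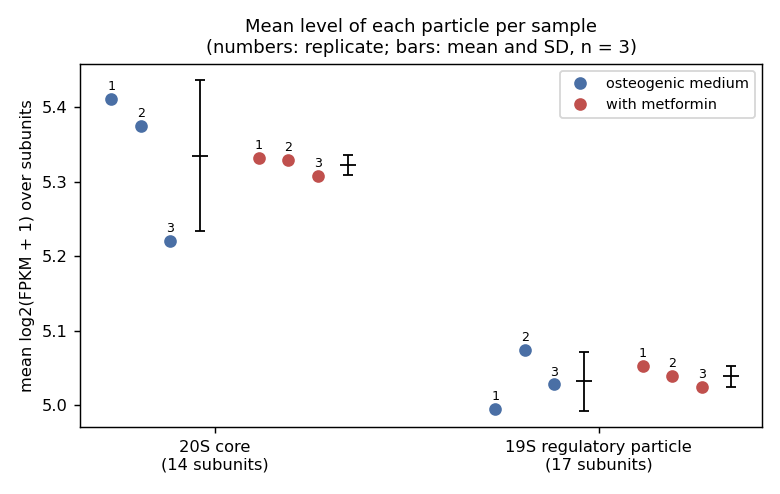
Mean log2(FPKM + 1) over the 14 core subunits and over the 17 regulatory particle subunits in each sample (blue, osteogenic medium; red, with metformin). Numbers are replicates and bars are the mean and SD of 3 samples. The metformin samples sit together, from 5.31 to 5.33 for the core, inside the span of the control samples from 5.22 to 5.41.

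Within the core, levels of subunits that enter the particle in equal numbers were far from equal. The subunit with the most FPKM had 5.16 to 8.497 times that of the lowest in control samples and 5.07 to 5.84 times with metformin. In the regulatory particle this ratio was 4.62 to 5.51 in control samples and 3.90 to 4.25 with metformin. Psmb5 was the highest of the 14 core subunits in all 3 controls, where it made up 15.6%, 15.3% and 17.9% of their summed FPKM. With metformin it was second to Psmb4, a structural beta subunit, at 11.9%, 12.6% and 12.01%. Psmb4 itself had 78.8 to 85.8 FPKM with metformin and 88.7 to 97.7 FPKM in the control samples. These ranks and ratios depend on the gene length that scales FPKM. Scaled by the longest GENCODE M21 transcript instead, a choice added after the data were seen, Psmb5 ranked 3, 2 and 2 in the control samples and 7, 6 and 7 with metformin. The core ratio was then 6.24 to 8.45 in control samples and 6.11 to 7.03 with metformin. By FPKM the lowest core subunit was Psma3 in every sample but control replicate 1, and its reads could be split with a pseudogene.

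The 7 alpha ring genes had 0 calls in either direction, where 13.2% of all tested genes were called higher and 9.28% lower. No more is read from so small a count. The median log2 fold change of the ring was -0.09, which turned to 0.13 without control replicate 1. The largest change was that of Psma4, with 34.3, 35.8 and 29.8 FPKM in the control samples and 38.7, 38.7 and 39.4 FPKM with metformin. The groups did not overlap, but the log2 fold change of 0.22 (95% confidence interval -0.003 to 0.45) did not pass the test (adjusted p = 0.144 by limma-trend). Psma6 (-0.19), Psma5 (-0.15), Psma7 (-0.11) and Psma3 (-0.09, and 0.13 without control replicate 1) had negative and Psma2 (0.12) and Psma1 (0.06) positive log2 fold changes. Psma8, the testis form of Psma7, was listed at 0 in all 6 samples. Psma2 and Psma3 were the members that control replicate 1 moved up most, by 0.67 each on the log2 scale against the other control samples, and without it Psma2 (log2 fold change 0.34, adjusted p = 0.0073 by limma-trend) and Psma1 (0.18, adjusted p = 0.0299 by limma-trend) were called higher. The transcript of Psma3 is identical over 665 bases to the pseudogene Gm13835, which had 510 to 903 reads per sample, so its reads could be split.

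The beta ring had Psmb5 as its 1 call (14.3% of its 7 genes lower, against 9.28% of all tested genes). The other 6 genes had log2 fold changes from -0.17 (Psmb4) to 0.16 (Psmb7). Psmb6, with the caspase-like site, had 31.3, 50.5 and 44.8 FPKM in the control samples and 45.4, 46.6 and 41.7 FPKM with metformin. Its groups overlapped, with a log2 fold change of 0.10 (95% confidence interval -0.32 to 0.52), and of -0.09 without control replicate 1. Psmb7, with the trypsin-like site, had 19.7, 20.8 and 18.4 FPKM in the control samples and 21.7, 23.1 and 21.4 FPKM with metformin. Every metformin sample was above the controls by a small margin, and the log2 fold change of 0.16 (95% confidence interval -0.04 to 0.36) did not pass the test (adjusted p = 0.219 by limma-trend). Psmb7 overlaps Nek6 on the opposite strand, which had 1295 to 1677 reads per sample.

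**Figure D3:**
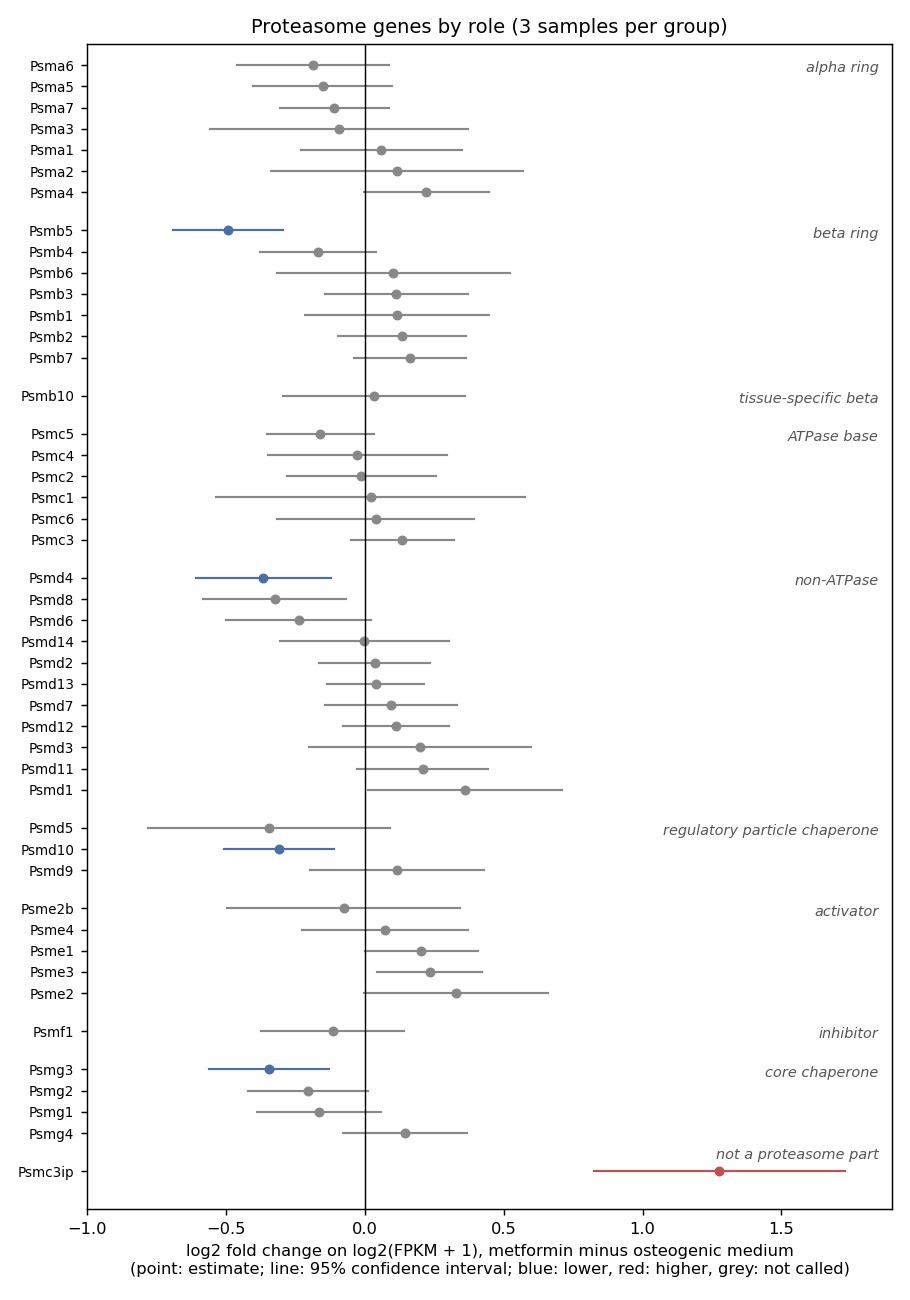
Log2 fold change on log2(FPKM + 1), metformin minus osteogenic medium, for the 46 tested members in groups of one role, with 95% confidence intervals (blue, called lower; red, called higher; grey, not called). Intervals of most members include 0, Psmb5 (-0.49) is the lowest point, and Psmc3ip (1.28) lies far to the right of all others.

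When cells meet interferon, the subunits Psmb8, Psmb9 and Psmb10 replace Psmb5, Psmb6 and Psmb7 and form the immunoproteasome. Psmb10, the only one of them among the members, had 7.07, 10.2 and 9.73 FPKM in the control samples and 8.81, 9.10 and 9.51 FPKM with metformin. The metformin samples lay within the range of the control samples, and the log2 fold change was 0.03 (95% confidence interval -0.29 to 0.36), and -0.12 without control replicate 1. Psmb11, the thymus form of Psmb5, had 1 read in metformin replicate 3 and 0 elsewhere and was not tested. The partners outside the rule were called higher. Psmb8 had 2.602, 3.90 and 3.37 FPKM in the control samples and 5.08, 5.80 and 4.503 FPKM with metformin (log2 fold change 0.52, SE 0.14, adjusted p = 0.0401 by limma-trend). Psmb9 had 1.36, 1.39 and 1.61 FPKM in the control samples and 2.603, 3.07 and 2.40 FPKM with metformin (log2 fold change 0.59, SE 0.10, adjusted p = 0.00875 by limma-trend). Neither gene overlapped between the groups. With the replicate block the call of Psmb8 was lost (adjusted p = 0.0518 by limma-trend). The call of Psmb9 held in 6 of 6 fits that left out one sample, and that of Psmb8 was lost without control replicate 3 (adjusted p = 0.0781 by limma-trend), without metformin replicates 1, 2 and 3 (adjusted p = 0.126, 0.151 and 0.0727 by limma-trend) and with no filter on low values (adjusted p = 0.0976 by limma-trend).

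Set against its constitutive partner, Psmb8 stood at 2.56%, 3.87% and 3.13% of the FPKM of Psmb5 in the control samples and at 7.05%, 7.59% and 6.35% with metformin. Psmb9 stood at 4.35%, 2.76% and 3.60% of Psmb6 in the control samples and at 5.74%, 6.60% and 5.75% with metformin. Psmb10 stood at 35.9%, 49.2% and 52.9% of Psmb7 in the control samples and at 40.6%, 39.3% and 44.4% with metformin. By FPKM the inducible subunit thus remained the minor one at all 3 sites in every sample. These percentages depend on the listed lengths. They were 2736 bases for Psmb8 against 899 for Psmb5, 3659 for Psmb9 against 1872 for Psmb6, and 1705 for Psmb10 against 3421 for Psmb7. The ratios of Psmb8 to Psmb5 and of Psmb9 to Psmb6 were higher in all metformin samples than in all controls. The log2 differences were 1.151 and 0.78. For Psmb8 to Psmb5 the separation followed from the levels, since every metformin sample was lower for Psmb5 and higher for Psmb8 than every control. An exact two-sided permutation test gave p = 0.1 for each, and 0.15 after Benjamini-Hochberg adjustment over 3 ratios. The value of 0.1 is the smallest that 3 against 3 samples can give. The test therefore could not pass the threshold of the fits, and no conclusion is drawn from it. For Psmb10 to Psmb7 the log2 difference was -0.13, within the spread of the control samples (exact two-sided permutation test, p = 0.5, adjusted 0.5).

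**Figure D4:**
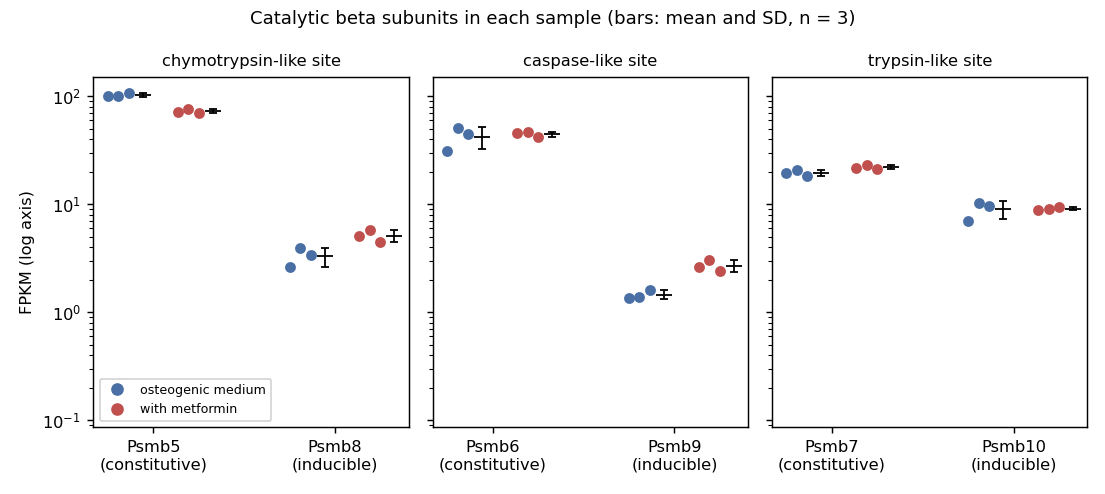
FPKM on a log axis of the constitutive and inducible subunit of each catalytic site in every sample (blue, osteogenic medium; red, with metformin), with the mean and SD of 3 samples as bars. Psmb5 is lower and Psmb8 and Psmb9 are higher in all metformin samples, while Psmb6 and Psmb10 overlap between the groups.

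None of the 6 ATPases of the regulatory particle was called, where 13.2% of all tested genes were called higher and 9.28% lower. The median log2 fold change of the ATPases was 0.004, or -0.03 without control replicate 1. The largest change was that of Psmc5, with 67.7, 67.1 and 64.7 FPKM in the control samples and 62.3, 58.5 and 57.5 FPKM with metformin. The metformin samples lay below the controls, and the log2 fold change of -0.16 (95% confidence interval -0.35 to 0.03) did not pass the test (adjusted p = 0.206 by limma-trend). Psmc1 was the member with the widest spread among control samples, at 29.6, 53.0 and 55.6 FPKM against 43.5, 46.9 and 44.9 FPKM with metformin. Its log2 fold change was 0.02 with all 6 samples and -0.26 without control replicate 1 (adjusted p = 0.0124 by limma-trend), and Psmc4 went from -0.03 to -0.17 (adjusted p = 0.0435 by limma-trend).

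The 11 non-ATPase subunits moved both ways, with a median log2 fold change of 0.04 and values from -0.36 (Psmd4) to 0.36 (Psmd1). All metformin samples lay above the controls for 3 of them (Psmd1, Psmd11 and Psmd12; 27.3%, against 23.6% of all tested genes) and below them for 3 (Psmd4, Psmd6 and Psmd8; 27.3%, against 20.5%). Psmd1, a large scaffold subunit of the base, had 20.4, 13.9 and 14.3 FPKM in the control samples and 20.6, 21.1 and 20.7 FPKM with metformin. Control replicate 1 lay just under the lowest metformin sample and the other control samples far under it, and the log2 fold change was 0.36 with all samples (adjusted p = 0.129 by limma-trend) and 0.53 without control replicate 1 (adjusted p = 0.000487 by limma-trend). Psmd8, a lid subunit, had 37.1, 46.7 and 45.1 FPKM in the control samples and 33.0, 33.8 and 35.0 FPKM with metformin. Its log2 fold change was -0.32 (adjusted p = 0.077 by limma-trend), and -0.43 without control replicate 1 (adjusted p = 0.00144 by limma-trend). Psmd14, the deubiquitinase of the lid, overlapped between the groups with a log2 fold change of -0.002 (95% confidence interval -0.31 to 0.30; 0.11 without control replicate 1), as did Psmd2, a scaffold of the base (0.04, 95% confidence interval -0.16 to 0.23).

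Of the assembly chaperones, 1 of 3 for the ATPase ring and 1 of 4 for the core were called lower, where 9.28% of all tested genes were, and no more is read from counts this small. Of the 3 chaperones of the ATPase ring, Psmd5 had a larger estimate than Psmd10 but did not pass the test. It had 22.9, 15.0 and 13.7 FPKM in the control samples and 13.5, 12.7 and 12.7 FPKM with metformin. Control replicate 1 was far above the other samples, and the log2 fold change was -0.34 with it (adjusted p = 0.229 by limma-trend) and -0.13 without it (adjusted p = 0.147 by limma-trend). Psmd9 overlapped between the groups, with a log2 fold change of 0.12 (-0.02 without control replicate 1). Of the 4 core chaperones, Psmg1 (-0.16), Psmg2 (-0.20) and Psmg3 (-0.35) lay below the controls in all metformin samples (20.5% of all tested genes did), of which Psmg3 alone was called, and Psmg4 overlapped (0.15). Pomp, the maturation factor that acts after them and has no Psm symbol, had 18.6, 18.1 and 17.7 FPKM with metformin against 21.1, 22.2 and 19.6 FPKM in the control samples (log2 fold change -0.20, adjusted p = 0.14 by limma-trend).

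The 5 activator genes had a median log2 fold change of 0.20 and 0 calls, where 13.2% of all tested genes were called higher and 9.28% lower. Psme1 (0.20), Psme2 (0.33) and Psme3 (0.23) were above the controls in all metformin samples (23.6% of all tested genes were) and did not pass the test (adjusted p = 0.136, 0.141 and 0.0797 by limma-trend). Psme2, a subunit of the interferon-inducible activator, had 9.56, 9.54 and 7.84 FPKM in the control samples and 9.63, 13.5 and 11.7 FPKM with metformin. The lowest metformin sample barely cleared the highest control. Its copy Psme2b is 99.4% identical over 794 bases and had a log2 fold change of -0.08, and the log2 difference of their summed reads was 0.14, a value added after the data were seen. Psme3, the subunit of a nuclear activator, had 33.4, 30.2 and 31.3 FPKM in the control samples and 36.9, 37.5 and 37.6 FPKM with metformin. Without control replicate 1, Psme3 (log2 fold change 0.27, adjusted p = 0.00606 by limma-trend) and Psme1 (0.22, adjusted p = 0.0447 by limma-trend) were called higher. Psme4, a single-chain activator, overlapped between the groups with a log2 fold change of 0.07. Psmf1, an inhibitor of the core, had 6.55, 8.41 and 8.39 FPKM in the control samples and 6.995, 7.05 and 7.14 FPKM with metformin. Its log2 fold change was -0.12 with overlapping groups (adjusted p = 0.485 by limma-trend), and -0.22 without control replicate 1 (adjusted p = 0.0186 by limma-trend).

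How far control replicate 1 lay from the other control samples differed widely between members, from -0.85 for Psmc1 to 0.67 for Psma3 on the log2 scale. It tended to be positive for members of low and negative for members of high GC content. Across the 46 tested members this deviation and the GC content of the longest transcript had a Pearson coefficient of -0.526 and a Spearman coefficient of -0.548, as a description of genes that share 1 library. The SD among control samples on the log2 scale had a median of 0.16 over the members, against 0.06 among metformin samples and 0.07 between control replicates 2 and 3. Over all tested genes the medians were 0.19 among control and 0.07 among metformin samples.

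**Figure D5:**
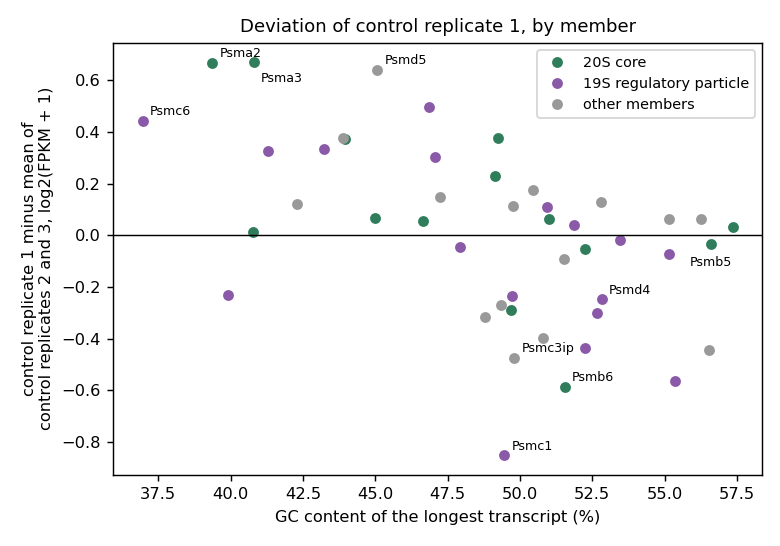
Deviation of control replicate 1 from the mean of control replicates 2 and 3 on log2(FPKM + 1), against the GC content of the longest transcript in percent, for the 46 tested members (green, core; purple, regulatory particle; grey, others). Points fall from upper left (Psma2 and Psma3 at 0.67) towards lower right, with Psmc1 lowest at -0.85, and Psmb5 lies near 0.

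Without control replicate 1, 6 members were called higher against 23.4% of all tested genes and 8 lower against 20.4%. The calls added were Psma1, Psma2, Psmd1, Psme1 and Psme3 on the higher side and Psmc1, Psmc4, Psmd8 and Psmf1 on the lower. Where the trend with GC was removed from each library, 3 of the 46 tested members were called higher and 7 lower. Of all tested genes 19.1% were higher and 16.0% lower in that fit. It added Psmd1 (log2 fold change 0.33) and Psme3 (0.22) on the higher side and Psmd6 (-0.27), Psmd8 (-0.32) and Psmg2 (-0.23) on the lower. Psmb5, Psmd4, Psmd10, Psmg3 and Psmc3ip were called in both. As shares of the tested members, the calls without control replicate 1 were 13.04% higher and 17.4% lower, both under the shares of all tested genes.

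Genes that serve the proteasome without being members were taken from a list of 29, of which 28 were tested. Of these, 4 were called higher (14.3%) and 2 lower (7.14%), close to the 13.2% and 9.28% of all tested genes. Uba1, the main ubiquitin-activating enzyme, had 43.3, 50.5 and 49.0 FPKM in the control samples and 65.9, 67.8 and 62.7 FPKM with metformin (log2 fold change 0.45, adjusted p = 0.0157 by limma-trend). Ubqln1, which carries ubiquitin-tagged proteins to the proteasome, had 18.97, 19.1 and 19.8 FPKM in the control samples and 24.7, 25.5 and 24.5 FPKM with metformin (0.35, adjusted p = 0.0168 by limma-trend). Psmb8 and Psmb9 were the others called higher. Zfand5, which binds and activates the proteasome, had 50.1, 48.1 and 43.8 FPKM in the control samples and 37.3, 37.2 and 38.4 FPKM with metformin (-0.32, adjusted p = 0.0392 by limma-trend). None of these groups overlapped. With the replicate block Uba1, Ubqln1 and Zfand5 lost the call (adjusted p = 0.062, 0.0931 and 0.137 by limma-trend). The calls of Uba1, Ubqln1 and Zfand5 were lost without each of metformin replicates 1, 2 and 3 (adjusted p from 0.0607 to 0.162 by limma-trend), those of Ubqln1 (adjusted p = 0.0525 by limma-trend) and Zfand5 (adjusted p = 0.101 by limma-trend) also without control replicate 2, and that of Zfand5 with the GC correction (adjusted p = 0.075 by limma-trend).

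The transcription of proteasome genes is raised by Nfe2l1 when proteasome activity falls, after Ngly1 removes its sugars and the protease Ddi2 cleaves it. Ddi2 was called lower, with 16.1, 13.3 and 15.5 FPKM in the control samples and 9.70, 9.84 and 9.37 FPKM with metformin. The groups were well apart, the log2 fold change was -0.58 (SE 0.09, adjusted p = 0.00641 by limma-trend), and the call held in 6 of 6 fits that left out one sample. Ddi2 shares 1749 identical bases with Rsc1a1, which had 0 reads in every sample. Nfe2l1 had 38.4, 57.9 and 64.6 FPKM in the control samples and 59.9, 65.0 and 62.0 FPKM with metformin. Control replicate 1 was low and the groups overlapped, with a log2 fold change of 0.25 (95% confidence interval -0.21 to 0.70, adjusted p = 0.404 by limma-trend), and of 0.03 without control replicate 1 (adjusted p = 0.789 by limma-trend). Ngly1 had 5.52, 3.34 and 3.45 FPKM in the control samples and 3.09, 2.73 and 3.27 FPKM with metformin, and its log2 fold change of -0.32 did not pass the test (adjusted p = 0.229 by limma-trend) and was -0.13 without control replicate 1. The 9 other subunits and helpers include the ubiquitin receptor Adrm1 and the deubiquitinases Uchl5 and Usp14. Of the 9, 0 were called higher and 1 lower (11.1%), against 13.2% and 9.28% of all tested genes.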

How the data were processed

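RNA of 6 MC3T3-E1 samples was sequenced, 3 per group, and groups and replicate numbers were taken from the sample labels. The authors deposited 1 table of 54532 genes that names no unit. Its values were identified as FPKM deposited by the authors, since multiplying by the listed gene length gave whole multiples of a smallest step in each sample (100% of values, tolerance 0.01), from which reads were recovered. How the gene length was defined, and whether counting used strand, are not given in the sources used here. The submitters' processing notes name Bowtie 0.12.2, mm8 and mm9, but 53585 of 54495 gene identifiers shared with GENCODE M21 (GRCm38) have the same coordinates, including 47 of the 48 members. The study tested its groups with DESeq2, which was not used here. The table held 0 further per-sample columns.

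Genes with a mean of at least 0.5 FPKM were tested with limma 3.58.1 (trend) in R 4.3.3 on log2(FPKM + 1), which understates changes of low genes, with two-sided p-values, Benjamini-Hochberg adjustment and a threshold of 0.05. The fit was tested on simulated data. Members, lists and alternatives were chosen with earlier results of these data known. Values in every sample are given for called members, catalytic subunits and the largest change of each role, and called helper genes, Nfe2l1, Psmb8 and Psmb9 are named. Psmc1, Psmd5, Psmd8, Psme3, Ngly1 and Pomp were given in full after their values were seen. Alternatives were scaling by total reads, a smaller pseudocount (0.1), no filter, a minimum of 10 reads per sample, voom on recovered reads, removal of a GC trend per library (spline, 5 degrees of freedom; the GC correction), the replicate block, both together, and leaving out each replicate. Transcripts were compared with BLAST+ 2.17.0: 15 members have a transcript of another gene at 95% identity over at least 200 bases, and 22 overlap another gene, 5 of them one with at least 100 reads in a sample. Promoter windows are from RefSeq (GRCm38.p6). Figures were drawn with matplotlib 3.10.9. Paaf1, of the helper list, was not analysed here. Some genes of that list are not reported by name here.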

Additional observations from a re-analysis of the deposited data

How the results depend on the processing

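The 53 genes counted here are the tested members, the called helper genes, Nfe2l1, Psmb8 and Psmb9. Markers and other listed genes were left out, and some of them changed sign, such as Bglap (-0.91 to 0.12 without 1 replicate). Under 14 alternatives (742 values), 656 values kept their direction and side of the threshold. Another 45 lost a call and 14 gained one without a change of sign. The other 27 changed sign, in 15 genes of which 0 were called with all samples. Of these, Psmc1 without control replicate 1 also gained a call. The members called higher were 1, and 3 with the GC correction; those called lower were 4, and 2 with no filter on low values, 2 by voom and 7 with the GC correction. Across the fits without 1 replicate they ranged from 1 to 6 and from 0 to 8, both highest without control replicate 1, and the lower calls were 0 without metformin replicate 1 or 3. Over the same fits core calls ranged from 0 to 2 higher and 0 to 1 lower, and regulatory particle calls from 0 to 1 higher and 0 to 4 lower. The regulatory particle had 0 lower with no filter, 1 higher and 3 lower with the GC correction, and 2 lower with the GC correction and the block. Helper genes ranged from 1 to 8 higher and 1 to 5 lower, with 1 lower under the GC correction and the block. Across the fits without 1 replicate the core median log2 fold change ranged from -0.0281 to 0.0742, against 0.0807 with all 6 samples. All tested genes gave 1670 higher and 1177 lower calls, 938 to 2969 and 495 to 2590 without 1 replicate, and 2030 lower with the GC correction.

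Same-numbered samples did not deviate together (correlations -0.0533, 0.000265 and -0.0549 across genes). Control replicate 1 stood apart from the other control samples, so these values cannot tell whether the numbers pair samples, and the labels do not say. With the replicate block 1 member was lower (Psmb5, adjusted p = 0.0485 by limma-trend) and 1 higher, 0 regulatory particle genes were lower, helpers had 1 higher and 1 lower, and 698 of all tested genes were lower and 1161 higher.

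Among the 53 genes counted, signs changed as follows, as log2 fold changes. With the GC correction, with and without the block, Psmc2 was 0.031 and Psmd14 0.006, and with scaling by total reads Psmc1 was -0.0068. Without 1 replicate the range was -0.0178 to 0.1831 for Psma1, -0.0366 to 0.3378 for Psma2, -0.2572 to 0.1315 for Psma3, -0.0196 to 0.2409 for Psmb1, -0.1151 to 0.1238 for Psmb10, -0.0932 to 0.2423 for Psmb6, -0.2628 to 0.1799 for Psmc1, -0.0856 to 0.0966 for Psmc2, -0.1715 to 0.0702 for Psmc4, -0.0947 to 0.1867 for Psmc6, -0.1216 to 0.1092 for Psmd14, -0.0096 to 0.0712 for Psmd2, -0.0172 to 0.2189 for Psmd9, -0.2531 to 0.0222 for Psme2b and -0.0303 to 0.199 for Psme4. The cause was not tested.

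The data give RNA levels, and neither subunit protein nor proteasome activity was measured in them.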
